A study of Mus musculus with 12 samples.

Results

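The lipase and amylase transcripts of the exocrine pancreas were followed through a study of pancreatic islets from female NOD/ShiLtJ wild-type mice, a strain that develops autoimmune diabetes. The set was chosen by name and holds 8 of the 49315 genes in the count table: Pnlip, Pnliprp1, Pnliprp2, Clps, Cel, Pla2g1b, Amy2b and Amy1. All 8 were present in both deposited tables, and all 8 passed the filter on low counts, with at least 1602 counts each in every library. Mice with normal blood glucose entered at 9 weeks of age and received IgG or an anti-CD3 antibody (2.5 mg/kg) once a week over 4 weeks. Islets were freed with collagenase P delivered through the bile duct and taken for RNA 2 to 3 days after the last dose, which gave 6 IgG and 6 anti-CD3 libraries of poly(A) RNA. The labels do not say whether a library came from 1 mouse or a pool, so p-values measure only the spread between these libraries. The groups were compared to ask what the antibody did to RNA levels in islet preparations of this strain.

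Lipases and amylases are made by acinar cells, stored in zymogen granules and released into the duct to digest dietary fat and starch. Pancreatic triglyceride lipase cannot work on bile-coated fat droplets without its cofactor colipase, while a bile-salt-dependent lipase and a secreted phospholipase act on other lipids. Amylase cuts starch, and its pancreatic transcripts in rodents are known to depend on insulin. They are known as products of acinar rather than endocrine cells, so acinar material collected with islets can bring their RNA into a preparation. How far it set the levels in these libraries was not tested.

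The 6 IgG libraries held 11891132 to 17628347 counts each, and the 6 anti-CD3 libraries 10994337 to 19284740. The labelled tissue is endocrine pancreas, and the 8 endocrine markers were all present, but 11 acinar markers, none of them among the 8 genes, held far more of the RNA. Their summed level was 170596 to 376769 CPM (counts scaled to a common library total) in IgG and 352832 to 384614 in anti-CD3, against 12888 to 39843 and 9915 to 20909 for the endocrine markers. IgG 5 and IgG 6 stood apart, with acinar markers at 285663 and 170596 CPM. In IgG 6 the summed T cell markers reached 358 CPM, B cell markers 260 and macrophage markers 1270, against at most 67.4, 41.0 and 251 in the other IgG libraries. Fold changes of the 8 genes and the medians of the gene lists are therefore also given without these 2 libraries, and the part of these other cell types in the results was not tested. In bulk RNA, fewer acinar cells and less enzyme RNA per acinar cell cannot be told apart.

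The amylase genes are shown first as sequence, because how their reads were divided decides which amylase values can be read. On GRCm38 the amylase locus lies on chromosome 3, with Amy2b (ENSMUSG00000083079) from 113147656 to 113156727 and Amy1 (ENSMUSG00000074264) from 113555710 to 113606699. Between them lie Amy2-ps1, a pseudogene, and the copies Amy2a1 to Amy2a5. A stretch of 60 bases inside the coding part of Amy2a5, the stretch where Amy2b differs most from it, shows how close the copies are. Capitals mark bases that differ from Amy2b, and sequences are GENCODE M21 transcripts of the C57BL/6J reference, 5′ to 3′.
Amy2b: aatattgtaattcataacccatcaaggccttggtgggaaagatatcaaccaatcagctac
Amy2a5: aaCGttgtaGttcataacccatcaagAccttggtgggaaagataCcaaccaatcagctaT
Amy2a2: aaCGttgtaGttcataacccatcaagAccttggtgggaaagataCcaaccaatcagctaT
Amy1: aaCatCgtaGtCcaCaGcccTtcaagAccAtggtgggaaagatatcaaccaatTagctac
Amy2a5 and Amy2a2 each differed from Amy2b at 6 of these 60 bases, and Amy1 at 10. Over the 1577 bases of its transcript, Amy2b was 97.6% identical to Amy2a5, and over 1575 aligned bases it was 89.5% identical to Amy1. The transcripts of Amy2a2, Amy2a3 and Amy2a4 were 100% identical over 3717 bases.

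Nearly all amylase counts fell on Amy2b. Of the counts at the 8 amylase genes, Amy2b held 98.5% over the 12 libraries (97.5% to 98.7% within a library), Amy1 1.21%, and Amy2a5 0.153%. Amy2a5, which the authors' deposited table names Amy2, had 167 to 523 counts per library, and Amy2a2, Amy2a3 and Amy2a4 had 0 to 8. GENCODE M21 lists Amy2b as an unprocessed pseudogene, while RefSeq on GRCm38.p6 lists it as protein-coding. Of all 100-base windows of the Amy2b transcript, 88.6% occur in no other amylase transcript, against 52.6% for Amy2a5 and 0% for Amy2a2. For Amy1 it was 100%, though 1128 of its exon bases also belong to Rnpc3, a spliceosome gene on the same strand that had 32 to 143 counts. No source used here says how multi-mapping reads were treated, and the amylase copies of the NOD strain were not analysed here. Reads of pancreatic amylase copies can therefore not be fully told apart in these counts.

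The promoters are shown as sequence, and a link between their letters and the RNA values was not tested. RefSeq promoters on GRCm38.p6 were matched for 7 of the 8 genes, and 250 bases before each start were searched on both strands for CACCTG, an E-box, and TTTCCC, a TC-box. Each string is 1 form of a class of element that the acinar factor PTF1 binds. Other forms, such as the CAGCTG in the Amy2a5 sequence, were not searched and are not marked. Capitals mark matches, which do not overlap one another.
Cel (chr2:28563404-28563653, minus strand): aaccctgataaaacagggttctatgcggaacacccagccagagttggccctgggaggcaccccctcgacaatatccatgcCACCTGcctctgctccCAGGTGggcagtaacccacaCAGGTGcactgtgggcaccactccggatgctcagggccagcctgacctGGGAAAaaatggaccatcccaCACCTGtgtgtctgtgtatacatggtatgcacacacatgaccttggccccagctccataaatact
Amy2b (chr3:113156728-113156977, minus strand): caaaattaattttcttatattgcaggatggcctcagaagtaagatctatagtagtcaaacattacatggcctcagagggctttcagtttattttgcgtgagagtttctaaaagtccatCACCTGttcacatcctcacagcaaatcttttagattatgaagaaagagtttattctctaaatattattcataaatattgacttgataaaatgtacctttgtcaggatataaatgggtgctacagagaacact
Amy2a5 (chr3:113258700-113258949, minus strand): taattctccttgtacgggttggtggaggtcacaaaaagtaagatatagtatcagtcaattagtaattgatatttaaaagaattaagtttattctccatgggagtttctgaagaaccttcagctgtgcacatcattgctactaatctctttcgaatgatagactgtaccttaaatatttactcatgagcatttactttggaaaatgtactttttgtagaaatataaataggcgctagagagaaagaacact
Cel held 4 E-boxes and 1 TC-box, Amy2b held 1 E-box, and Pnliprp2 held 1 E-box. Pnlip, Pnliprp1, Pla2g1b, Amy2a5 and both Amy1 promoters held neither string. Over all 32851 promoters in the table, 17.2% held CACCTG, 21.9% held TTTCCC and 3.61% held both. A match describes the letters only.

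Together the 8 genes took 8.27% to 18.6% of all counts in IgG (median 15.8%) and 15.8% to 17.9% in anti-CD3 (median 16.4%). IgG 6 had the lowest share and IgG 5, with 14.3%, the next lowest, while the other 4 IgG libraries lay between 14.9% and 18.6% and overlapped the anti-CD3 range. Pnlip alone took 3.61% to 8.74% of the counts in IgG and 7.23% to 8.46% in anti-CD3. At this depth counting error was small, since the exact (Clopper-Pearson) 95% interval of a share was at most ± 0.580% of its value for Amy2b and ± 4.93% for Amy1. These intervals cover counting error only.

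Levels compared per kilobase of merged exon gave a fixed order of Pnlip, Clps and Cel, though their separation depended on the length used. In counts per kilobase, Pnlip made up a median of 36.6% of the 8 genes over the 12 libraries, Clps 22.1% and Cel 16.9%. Pnliprp1 followed with 9.83% and Amy2b with 9.44%, then Pnliprp2 with 3.12%, Pla2g1b with 2.44% and Amy1 with 0.0531%. Pnlip ranged from 33.8% to 38.5% and did not overlap Clps (19.9% to 25.1%), which in turn did not overlap Cel (13.6% to 19.2%). Per kilobase of the longest transcript, Clps (16.2% to 20.7%) and Cel (11.5% to 16.2%) were no longer separate. With that length Pnliprp1 (12.1%) lay above Cel (11.5%) in anti-CD3 1. Pnliprp1 (8.59% to 10.9%) and Amy2b (6.11% to 12.6%) overlapped and their order is not resolved, and Pnliprp2 (2.75% to 3.52%) overlapped Pla2g1b (2.04% to 3.43%). IgG 6, with the least enzyme RNA, had the lowest Pnlip part (33.8%) and the highest Cel part (19.2%) of the 12 libraries, and Clps at 23.6%.

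**Figure D1:**
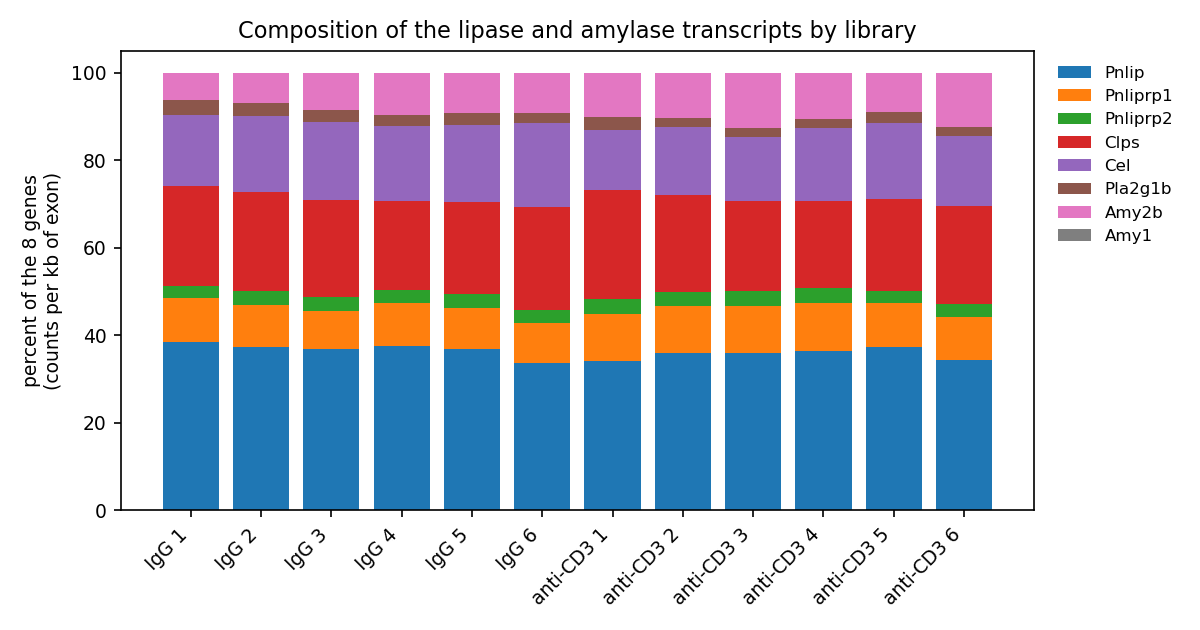
Stacked bars give each gene's percentage of the summed counts per kilobase of merged exon of the 8 genes, for each of the 12 libraries (x axis). Pnlip is the largest part in every library, from 33.8% to 38.5%, and the Amy2b part ranges from 6.11% in IgG 1 to 12.6% in anti-CD3 3.

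All 8 genes had higher values in anti-CD3 than in IgG, and none passed the test. The log2 fold changes ran from 0.31 for Pla2g1b to 1.08 for Amy1, with a median of 0.58 against -0.05 over all 13115 genes tested (edgeR quasi-likelihood test, n = 6 per group). Of the 8, 0 passed at an adjusted p of 0.05, where 0.0762% of all genes tested passed, and 2, Amy1 and Amy2b, had an unadjusted p under 0.05. Over all genes tested, 18.4% had an unadjusted p under 0.05, made up of 9.68% higher and 8.68% lower. With DESeq2, which called 3.78% of genes (2.65% as higher), 1 of the 8 passed, Amy1. Without IgG 5 and IgG 6, 7 of the 8 were higher, 0 passed edgeR, and the median was 0.22. These libraries had the lowest shares of the 8 genes, so a smaller median could be foreseen and is no independent check.

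The triglyceride lipase Pnlip (ENSMUSG00000046008, chromosome 19, 58652498 to 58681788) had normalized counts, which are counts divided by the authors' size factor of the library, of 230681 to 1496861 in IgG (median 1050940). In anti-CD3 they were 1181057 to 1711646 (median 1333119). The groups overlapped, since IgG 3 and IgG 4 lay inside the anti-CD3 range and the other 4 IgG libraries below it. The log2 fold change was 0.48 ± 0.38 (SE, edgeR adjusted p = 0.503), and it was 0.12 ± 0.17 without IgG 5 and IgG 6.

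Pnliprp1 and Pnliprp2, its neighbours on chromosome 19, encode related proteins. Pnliprp1 (ENSMUSG00000042179, 58728887 to 58744169), whose product has little known lipase activity, had normalized counts of 62669 to 383512 in IgG (median 276128) and 358581 to 460126 in anti-CD3 (median 388441). Only IgG 4 reached the anti-CD3 range, and the log2 fold change was 0.68 ± 0.35 (SE, edgeR adjusted p = 0.314), or 0.33 ± 0.16 without IgG 5 and IgG 6. Pnliprp2 (ENSMUSG00000025091, 58759719 to 58777534) encodes a lipase of galactolipids and phospholipids that is also known from cytotoxic T cells. Its normalized counts were 14500 to 95908 in IgG (median 58878) and 79921 to 102587 in anti-CD3 (median 89075), with IgG 3 and IgG 4 inside the anti-CD3 range. The log2 fold change was 0.61 ± 0.35 (SE, edgeR adjusted p = 0.356), or 0.25 ± 0.18 without IgG 5 and IgG 6.

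Clps (ENSMUSG00000024225, chromosome 17, 28558149 to 28560766), which encodes colipase, had normalized counts of 44855 to 250563 in IgG (median 176268) and 179326 to 296393 in anti-CD3 (median 232624). IgG 2, IgG 3 and IgG 4 lay inside the anti-CD3 range. Its log2 fold change was 0.55 ± 0.35 (SE, edgeR adjusted p = 0.408). It was 0.19 ± 0.18 without IgG 5 and IgG 6, and 0.09 ± 0.32 with an offset for transcript length. Cel (ENSMUSG00000026818, chromosome 2, 28555795 to 28563403), the bile-salt-dependent lipase, had 125580 to 696074 in IgG (median 448899) and 486919 to 758540 in anti-CD3 (median 535116). IgG 2, IgG 3 and IgG 4 again overlapped anti-CD3, and the log2 fold change was 0.38 ± 0.36 (SE, edgeR adjusted p = 0.567), or 0.04 ± 0.18 without IgG 5 and IgG 6. Pla2g1b (ENSMUSG00000029522, chromosome 5, 115466262 to 115474722), a secreted phospholipase made as a proenzyme, had 4743 to 34815 in IgG (median 28598) and 23091 to 40716 in anti-CD3 (median 25506). Here 4 IgG libraries lay inside the anti-CD3 range and the IgG median was the higher one, although the log2 fold change was 0.31 ± 0.37 (SE, edgeR adjusted p = 0.667). It turned negative with the length offset (-0.18 ± 0.34) and with IgG 5 and IgG 6 left out (-0.06 ± 0.18).

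The amylases had the largest fold changes of the 8. Amy2b had normalized counts of 45128 to 269535 in IgG (median 131450) and 243673 to 361839 in anti-CD3 (median 299833). IgG 3 and IgG 4 reached the anti-CD3 range, and the other 4 IgG libraries lay below every anti-CD3 library. The log2 fold change was 0.93 ± 0.36 (SE, edgeR adjusted p = 0.198), or 1.90-fold, and 0.60 ± 0.23 without IgG 5 and IgG 6. With the 8 amylase genes summed before the fit, an alternative added after the data were seen, it was 0.93 ± 0.36 (SE, edgeR adjusted p = 0.197). Amy1, known as the salivary and liver amylase gene, had normalized counts of 636 to 2771 in IgG (median 1866) and 2688 to 6559 in anti-CD3 (median 3237). IgG 4 was the only IgG library inside the anti-CD3 range, and anti-CD3 1 was the highest library. The log2 fold change was 1.08 ± 0.32 (SE, edgeR adjusted p = 0.126), or 2.12-fold.

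Amy1 was the member whose call depended on the tool. The authors' deposited table gave it a log2 fold change of 1.08 with an adjusted p of 0.0253, and 4.55% of the genes with an adjusted p in that table passed at 0.05 (3.24% as higher). It was the 1 member of 8 that passed there, and Amy2b followed with an adjusted p of 0.0723 in the authors' deposited table. DESeq2 on the deposited counts gave Amy1 a value of 1.08 ± 0.32 (SE, adjusted p = 0.0291). With edgeR, Amy1 lay between 0.86 and 1.24 when single libraries were left out, with an adjusted p from 0.102 to 0.274, and at 0.77 ± 0.24 without IgG 5 and IgG 6 (edgeR adjusted p = 0.297).

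**Figure D2:**
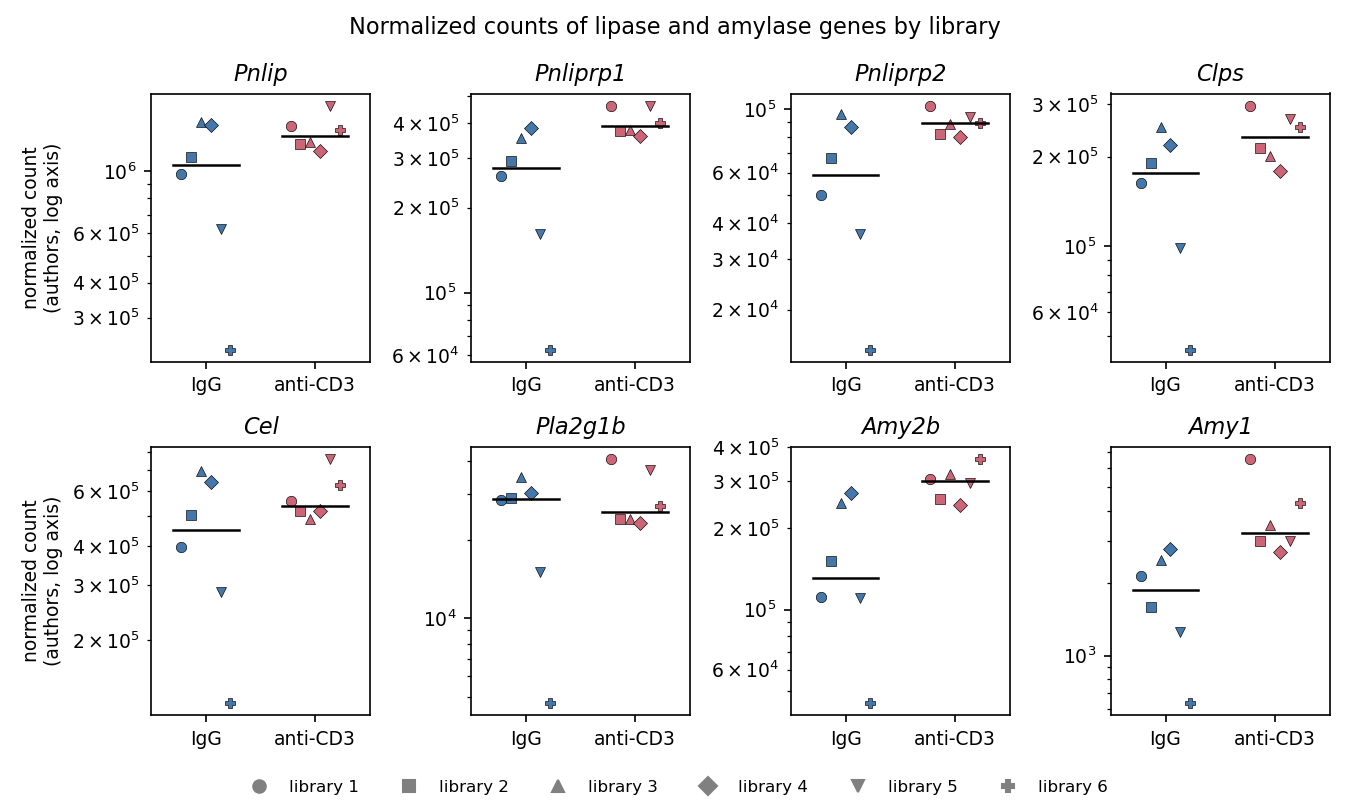
Each panel gives 1 gene's normalized count (the authors' values, log axis) in the 6 IgG and 6 anti-CD3 libraries, with a symbol per library number and a line at the group median. IgG 6 is the lowest library in all 8 panels, and for Amy1 all anti-CD3 libraries but the lowest, at 2688, lie above the highest IgG library at 2771.

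The scaling used for the comparison moved all 8 values. As plain shares of the library, with no composition factor, Amy1 was at 0.63 ± 0.23 and Amy2b at 0.53 ± 0.19 (SE, edgeR adjusted p = 0.0600 and 0.0607), Pnlip was at 0.09, Cel at -0.03 and Pla2g1b at -0.10. Under that scaling the median of all genes was -0.70. TMM scaling weighs the enzymes against the bulk of the other genes, and its library factors ran from 0.733 in anti-CD3 5 to 2.36 in IgG 6.

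To compare the 8 genes with other acinar products, counts were scaled to the summed counts of 17 acinar zymogen genes, mostly proteases. These zymogens took 23.1% to 51.3% of the counts in IgG and 49.7% to 52.7% in anti-CD3, with IgG 6 and IgG 5 (39.4%) lowest. On this scale 3 of the 8 genes were higher and 5 lower in anti-CD3, with a median of -0.06 against -1.20 over all genes tested. Of the 8, 0 passed edgeR, while 43.8% of all genes passed, 10 higher and 5732 lower. An unadjusted p under 0.05 was found for 0 of the 8 and for 64.7% of all genes (0.114% higher and 64.6% lower). Cel was at -0.28 ± 0.13 (SE, edgeR adjusted p = 0.0789), Pnlip at -0.14 ± 0.10 and Pnliprp1 at 0.05 ± 0.14. Amy2b was at 0.27 ± 0.18 (edgeR adjusted p = 0.176) and Amy1 at 0.34 ± 0.36 (edgeR adjusted p = 0.388). Against other acinar transcripts, then, no difference in a lipase or amylase passed the test, which does not show that the groups were alike. With IgG 5 and IgG 6 left out of this fit, Amy1 was at 0.48 ± 0.20 and Amy2b at 0.37 ± 0.15 (SE, edgeR adjusted p = 0.275 and 0.268). In the same fit Pla2g1b was at -0.36 ± 0.13 and Cel at -0.22 ± 0.10 (SE, edgeR adjusted p = 0.248 and 0.291), and 0 of the 8 passed. These 4 genes, 2 higher and 2 lower, had an unadjusted p under 0.05 there. The share of all genes at that level is not given for that fit, and the 64.7% found with all 12 libraries cannot stand in for it. The count of 4 is therefore not read as a result about these genes.

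**Figure D3:**
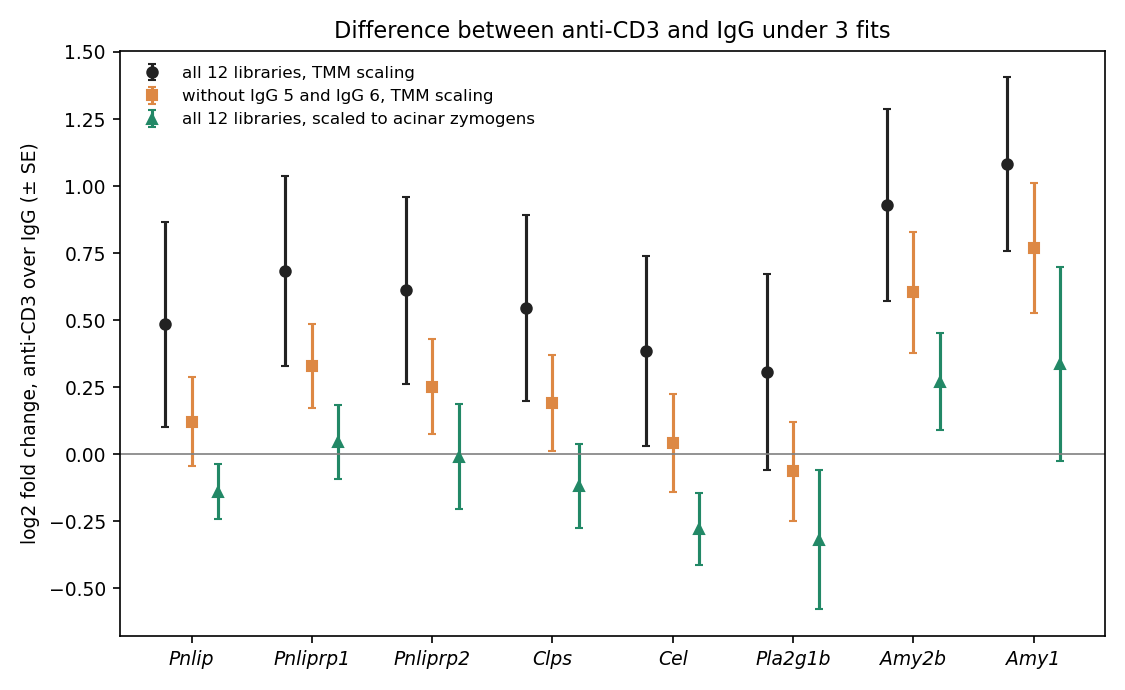
Points give each gene's log2 fold change (anti-CD3 relative to IgG), with bars for 1 SE, in 3 edgeR fits: all 12 libraries with TMM scaling, the same without IgG 5 and IgG 6, and all 12 libraries scaled to acinar zymogens. In every fit Amy1 and Amy2b are the highest of the 8, and the 6 lipase members move to between -0.32 and 0.05 on the zymogen scale.

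Ratios between enzymes within a library were also compared. The 2 amylases together had 60.7 to 96.8 counts per 1000 counts of the 6 lipase members in IgG (median 88.6) and 89.2 to 132 in anti-CD3 (median 107). Of the 6 anti-CD3 libraries 5 lay above every IgG library, and anti-CD3 5 was the exception. The lowest were IgG 1 and IgG 2 (69.3), and IgG 5 and IgG 6 had 91.6 and 94.7. In a fit scaled to the 6 lipase members, also added after the data were seen, Amy2b was at 0.43 ± 0.18 (SE, edgeR adjusted p = 0.0746) and Amy1 at 0.49 ± 0.36 (edgeR adjusted p = 0.234). Of all genes 0%, and so 0 of the 8 here, passed in that fit, where 6733 had an unadjusted p under 0.05, Amy2b among them.

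Pnliprp1 had 236 to 272 counts per 1000 Pnlip counts in IgG (median 262) and 268 to 318 in anti-CD3 (median 299). Again 5 of 6 anti-CD3 libraries lay above all IgG libraries, with anti-CD3 5 the exception. Cel had 405 to 544 counts per 1000 Pnlip counts in IgG (median 453) and 383 to 446 in anti-CD3 (median 424). Here IgG had the higher values: IgG 1 and IgG 4 lay inside the anti-CD3 range and the other 4 IgG libraries above it. For Clps the ratio to Pnlip was 150 to 194 in IgG and 152 to 205 in anti-CD3, and for Pla2g1b it was 20.6 to 28.9 and 19.0 to 28.1. In the fit scaled to the lipase members, Pnliprp1 was at 0.19 ± 0.14 and Cel at -0.14 ± 0.13 (SE, edgeR adjusted p = 0.231 and 0.334). Both genes are part of the sum they were scaled to, so these values are not measured against an independent scale.

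**Figure D4:**
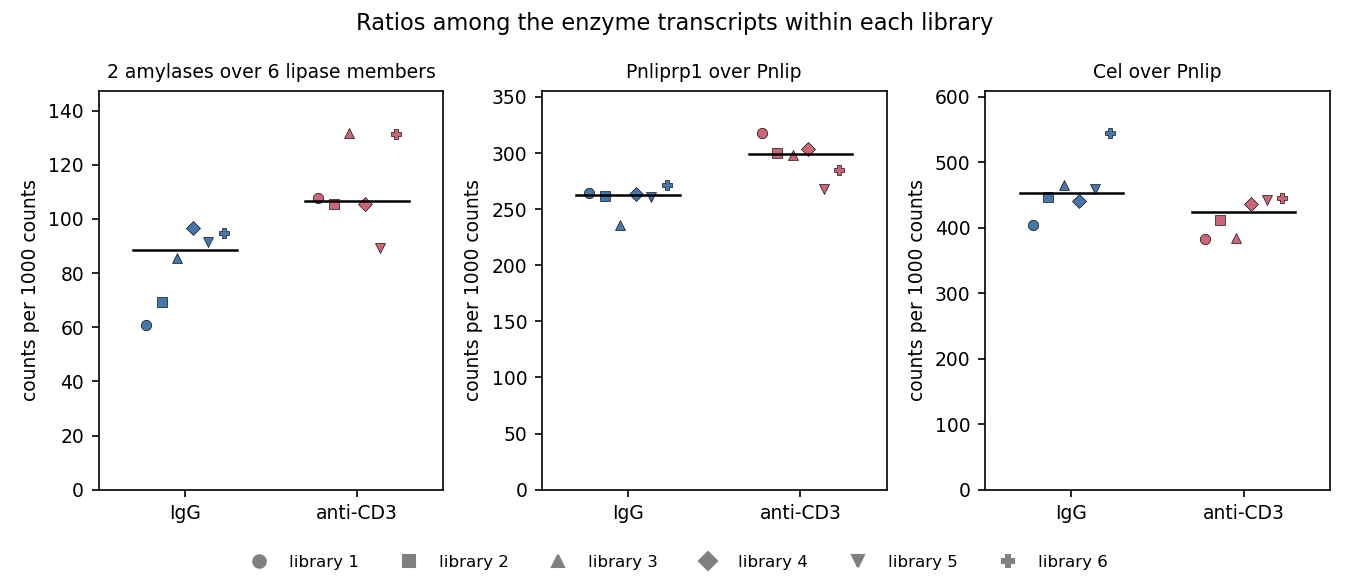
Panels give, per library, counts of the 2 amylases per 1000 counts of the 6 lipase members, and of Pnliprp1 and Cel per 1000 Pnlip counts, with lines at group medians. For the amylases and for Pnliprp1, 5 of 6 anti-CD3 libraries lie above every IgG library.

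The share of Amy1 among amylase counts was high in the libraries numbered 1 of both groups. Amy1 had 19.1 counts per 1000 Amy2b counts in IgG 1 and 21.4 in anti-CD3 1, against 10.02 to 14.1 in the other 5 IgG libraries and 10.1 to 11.9 in the other 5 anti-CD3 libraries. Amy2-ps1, an annotated pseudogene, followed the same pattern, with 2.01 and 2.10 counts per 1000 Amy2b counts in these libraries and 1.13 to 1.64 in the other 10. Amy2a5 did so in anti-CD3 1 only, which at 2.11 was the highest of all libraries. IgG 1, at 1.13, was the lowest IgG library for Amy2a5. The high Amy1 ratios had different parts in the libraries numbered 1. Per 1000 zymogen counts, IgG 1 had Amy1 near the IgG median (0.336 against 0.333) and the lowest Amy2b of the 12 libraries (17.6). Anti-CD3 1 had the highest Amy1 (0.628), with Amy2b at 29.3 against an anti-CD3 median of 31.2. Salivary gland markers were listed at 0 in every library for 4 of 6 genes, and their summed level was at most 0.124 CPM, in IgG 6. The ratio of Amy1 to Amy2b had medians of 10.9 in IgG and 11.4 in anti-CD3, and the groups overlapped.

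**Figure D5:**
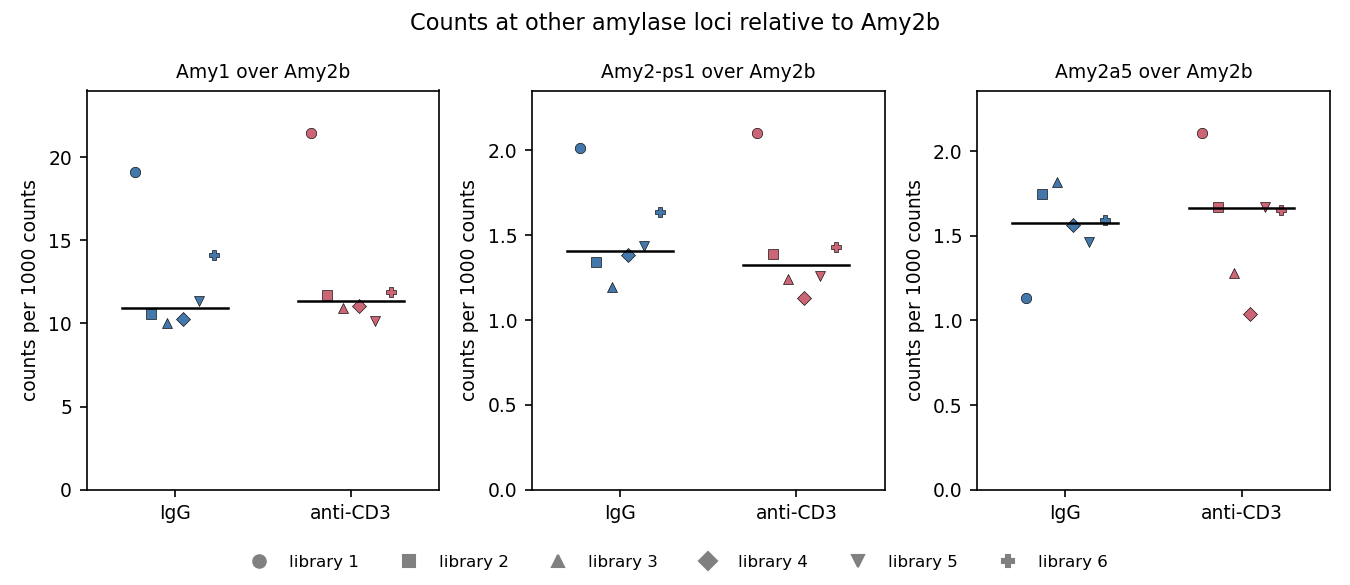
Panels give counts at Amy1, Amy2-ps1 and Amy2a5 per 1000 Amy2b counts in each library, with a symbol per library number and lines at group medians. IgG 1 and anti-CD3 1 are the highest of their groups for Amy1 (19.1 and 21.4) and for Amy2-ps1 (2.01 and 2.10).

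The genes whose pattern was most like a member were found from the SD, over the 12 libraries, of the log2 ratio to it, among 10830 genes with a mean log2 CPM of at least 1. For Pnlip the closest non-members were Gjb1, a connexin, with an SD of 0.08, Cbs, an enzyme of sulfur amino acid metabolism, with 0.09, and Cpa1, a carboxypeptidase, with 0.11. Perp and Slc39a5 followed with 0.13 and 0.14, and the median gene had 0.85. For Cel they were Gjb1 with 0.12, Gm4737 with 0.14, and Aldh7a1, Cbs and Cpa1 with 0.15 each. Among the members, the SD of the ratio to Pnlip was 0.12 for Pnliprp1, 0.14 for Cel, Clps and Pnliprp2, and 0.22 for Pla2g1b. It was larger for Amy2b (0.34) and Amy1 (0.45). Named after the values were seen, the closest genes to Amy2b were Serpini2, a serpin of the exocrine pancreas, with 0.16, and Cpb1 with 0.17, and the closest to Amy1 was Amy2-ps1 with 0.14. The acinar content differed between libraries, and its part in these likenesses was not tested.

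Other acinar genes had values like those of the 8. Among 17 acinar zymogen genes, anti-CD3 values were above IgG in 16 (median 0.68), 0 passed edgeR or DESeq2, and 6 had an unadjusted p under 0.05, all higher, where 9.68% of all genes were higher at that level. Prss2, a trypsinogen, was at 0.95 ± 0.36 and Cpb1, a carboxypeptidase, at 0.82 ± 0.36 (SE, edgeR adjusted p = 0.190 and 0.253), and the exception was Prss3 at -0.32 ± 0.58. All 14 genes of granules, acinar transcription factors and secretagogue receptors were higher, with a median of 0.68. Of these 0 passed edgeR and 1, Xbp1, passed DESeq2, which called 3.78% of all genes. Xbp1, a transcription factor of secretory cells, was at 0.79 ± 0.22 (SE, edgeR adjusted p = 0.108), and Ptf1a, which drives acinar enzyme genes, at 1.34 ± 0.55 (SE, edgeR adjusted p = 0.228). Without IgG 5 and IgG 6 the medians of these lists were 0.33 and 0.32, with 15 of 17 and 12 of 14 higher and 0 passing edgeR.

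Lipases of other tissues had mixed directions. The 13 tested split into 5 higher and 8 lower (median -0.31), and 0 passed edgeR or DESeq2, which gave Lipc no adjusted p. At an unadjusted p under 0.05, 1 was higher and 3 lower, where 9.68% of all genes were higher and 8.68% lower. Lipc, hepatic lipase, was at 1.13 ± 0.47 and Lipa, the lysosomal acid lipase, at -0.84 ± 0.37 (SE, edgeR adjusted p = 0.218 and 0.251). Of 8 genes that break down glycogen or starch elsewhere, 3 were higher and 5 lower (median -0.15), with 0 passing edgeR or DESeq2 (no DESeq2 adjusted p for Pygm and Mgam) and 0 at an unadjusted p under 0.05. Without IgG 5 and IgG 6 the other lipases split into 6 higher and 7 lower (median -0.20), the glycogen and starch genes into 4 higher and 4 lower (median 0.04), and 0 passed edgeR in either list. The part of immune and stromal RNA in these differences was not tested. With all 12 libraries, all 8 T cell, 5 B cell, 6 macrophage and 6 stromal markers had lower values in anti-CD3, with medians of -1.21, -1.43, -0.95 and -1.21. Of these, 0 passed edgeR and 2 stromal markers passed DESeq2, which called 3.78% of all genes. An unadjusted p under 0.05 was found for 3 T cell, 0 B cell, 1 macrophage and 4 stromal markers. Of all genes tested, 8.68% were lower at that level. Without IgG 5 and IgG 6 the medians were -0.31 for T cell, 0.45 for B cell, -0.04 for macrophage and -0.91 for stromal markers, so that the B cell direction turned. Of the 8 endocrine markers, 3 were higher and 5 lower, with a median of -0.11 and, without these 2 libraries, -0.12.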

How the data were processed

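The members and gene lists were chosen with earlier results of these data known. The submitters' processing notes name Trimmomatic 0.36, STAR 2.5.2b, featureCounts, Subread 1.5.2, DESeq2 and the build GRCm38 (mm10). Strand setting and annotation release were not found in any source used here. The authors deposited whole-number counts per gene and a normalized signal. Counts over signal gave a constant ratio in each library, its size factor (0.554 to 2.52). The authors' deposited table also gives a log2 fold change and its p-values. Columns were matched by group and number, with 0 left unmapped; in the count table the name of the anti-CD3 5 column starts with "added", which no source used here explains.

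The main test used edgeR 4.0.16 under R 4.3.3: filterByExpr (minimum count 10, total 15; 13115 genes kept), TMM, robust quasi-likelihood F test, two-sided, Benjamini-Hochberg adjustment over all genes tested. Each SE was derived from the F statistic. The procedure was tested on simulated data. Alternatives were DESeq2 1.42.0, limma-voom (limma 3.58.1), other scalings and filters, a replicate block, a length offset (lowess span 0.3) and left-out libraries. Merged exon lengths came from GENCODE M21. Named genes were all 8 members, up to 4 genes per list with the smallest p (of which part are given), and the 5 genes nearest to Pnlip and to Cel by the SD of the log2 ratio (prior count 2); genes outside this rule are marked in the text (Prss3 as the exception of its list).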

Additional observations from a re-analysis of the deposited data

Results flagged for a closer look

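A library was set apart when its gap to the nearest library of its group exceeded 0.625 of the group's range (Dixon's 95% value for 6 libraries). Chance alone gives this in about 1 in 20 independent groups of normally distributed values. Of 78 groups of 6 libraries examined, 6 held such a library. The groups share libraries and genes and are not independent, so this number cannot be set against the 1 in 20, and chance is not excluded. IgG 6 was set apart for the Pla2g1b share of all counts, at 0.0742% against 0.162% to 0.212% in the other IgG libraries, and for Pnlip within the 8 genes per kilobase, at 33.8% against 36.8% to 38.5%. IgG 3 was low for Pnliprp1, at 236 counts per 1000 Pnlip counts against 260 to 272. In anti-CD3, library 1 was high for 3 ratios. Amy1 was at 21.4 counts per 1000 Amy2b counts against 10.1 to 11.9, Amy2-ps1 at 2.10 against 1.13 to 1.43, and Pla2g1b at 28.1 counts per 1000 Pnlip counts against 19.0 to 21.6.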

How the results depend on the processing

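The count of genes past the test was 10 and became 455 with DESeq2, 135 with limma-voom, 167 with no filter on low counts, 6 with upper-quartile factors, 5 with no robust estimation, 4 with the length offset, 1 without IgG 5 and IgG 6, and 0 with library totals only. Scaled to zymogens it was 5742, and leaving out 1 library gave 0 (with IgG 5 or with library 1, 5 or 6 of anti-CD3 omitted) to 203 (with anti-CD3 2 omitted). With the replicate number as a block it was 0. Same-numbered libraries deviated together in part only (correlations of -0.29 to 0.55 over 6 pairs, 3 of 6 IgG libraries closest to their own number), so the numbers were not taken as pairs. Of the 8 members 0 passed edgeR or limma-voom in any alternative run, 12 single omissions included, and 1 passed DESeq2. On the zymogen scale 0 passed in every alternative run. Negative values arose on the zymogen scale for Pnlip (-0.14), Pnliprp2 (-0.0085), Cel (-0.28), Clps (-0.12) and Pla2g1b (-0.32), with library totals only for Cel (-0.025) and Pla2g1b (-0.10), and for Pla2g1b with the length offset (-0.18) and with IgG 5 and IgG 6 left out (-0.063). Amy1, Amy2b and Pnliprp1 kept their direction in all 25 alternatives. On the zymogen scale Pnliprp2 was at 0.067 without the trypsinogen copies, at 0.0046 without IgG 5 and IgG 6, and between -0.063 and 0.022 with 1 library left out. With the longest transcript as the length, the median parts of the 8 genes were 44.2% for Pnlip, 11.04% for Pnliprp1, 2.55% for Pnliprp2, 14.1% for Cel, 18.1% for Clps and 0.0751% for Amy1, with Pla2g1b and Amy2b within 1 SD. Depth did not limit the members, whose lowest count was 1602.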
